A study of Mus musculus with 10 samples.

Results

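The hypoxia-inducible factor genes and their feedback loop were described in mouse brown fat as 10 genes taken by symbol from a count table of 20295 genes. They are the alpha subunits Hif1a, Epas1 and Hif3a, the shared partner Arnt, the prolyl hydroxylases Egln1, Egln2 and Egln3, the ubiquitin ligase subunit Vhl, and the target genes Bnip3 and Ddit4. All 10 symbols were present on 1 row each, and 9 genes had enough reads to be tested. No other gene model of the table overlapped any of the 10.

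Poly-A RNA of the interscapular brown fat depot was sequenced from 10 male C57BL/6JBomTac mice aged 8 weeks, each housed alone. The control group was 5 mice kept at 22 °C and the cold group 5 mice kept at 4 °C for 3 days. The treatment tag of the cold samples calls their 4 °C room temperature, while their titles and the treatment protocol call it cold, which was followed here. The count columns of all 10 mice carry the label WT, read here as wild type, and no other genotype and no drug is given. The comparison asks how transcript levels in the depot differ after the cold exposure.

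Hypoxia-inducible factors are transcription factors made of an oxygen-regulated alpha subunit and the stable partner ARNT. When oxygen is present, prolyl hydroxylases encoded by the Egln genes mark the alpha subunit, and the VHL ubiquitin ligase has it degraded, so that the pathway is controlled mainly at the protein level. When oxygen is short, the dimer binds DNA at a short core sequence and activates genes of glycolysis, blood vessel growth and mitochondrial turnover, among them hydroxylase genes that close a feedback loop. Brown fat burns much oxygen when it makes heat, which is the reason the pathway is of interest there.

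The DNA core that the factors recognise can be read in the promoters of these genes. RefSeq promoter sequences of build GRCm38.p6 were found for 9 of the 10 genes, and none was found for Epas1. The 250 bases before the RefSeq transcription start were searched on both strands for ACGTG and GCGTG. The 9 genes have 10 promoter entries, because Egln2 has 2, of which 1 holds ACGTG. Any entry under these symbols on a chromosome that holds none of the 10 genes was left out. Counted by entry, the core ACGTG was present in 6 of 10 and in 16.6% of 32851 promoters of the same length. Either core was present in 9 of the 10 entries and in 38.6% of all promoters, and Vhl had neither. Both cores contain the pair CG, and the promoters compared were not matched for base composition. The 10 genes were also chosen as genes of this pathway, so these shares describe the entries and do not test for enrichment. The following 30-base stretches, in the direction of the gene, show every ACGTG of the 6 genes with the core in capitals. Where the core is the palindrome CACGTG, which holds ACGTG on both strands and is also the E-box of other factors, the palindrome is in capitals. It occurs in 6% of all promoters.
Hif1a, first core, chr12:73907720-73907749, plus strand: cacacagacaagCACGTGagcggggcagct
Hif1a, second core, chr12:73907785-73907814, plus strand: tggctgagagcaACGTGggctggggtgggg
Egln1, chr8:124949305-124949334, minus strand: gggccgtggtgtACGTGcagcgcgcgcgga
Egln2, chr7:27166833-27166862, minus strand: agcctcctgtcaACGTGcggttcgcgcacg
Egln3, chr12:54204086-54204115, minus strand: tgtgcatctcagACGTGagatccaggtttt
Bnip3, chr7:138909597-138909626, minus strand: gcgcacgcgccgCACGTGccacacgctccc
Ddit4, chr10:59951940-59951969, minus strand: agaacgttgcgaACGTGcgcccggtgccta
The core began 135 and 70 bases before the RefSeq start of Hif1a, 68 before that of Egln1 and 108 before that of Bnip3. It began 48 bases before the RefSeq start of Egln2, 187 before that of Ddit4 and 229 before that of Egln3. The earliest transcript start in the GENCODE annotation lay 6492 bases before the RefSeq start of Hif1a and 70 before that of Egln1. The cores of Hif1a and Egln1 thus lie after that earlier start. A match describes the letters of the window and is not a measured binding site.

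The Bnip3 promoter is shown whole because it held the palindrome and 3 copies of GCGTG on either strand, all in capitals (chr7:138909507-138909756, minus strand, GRCm38.p6).
Bnip3 promoter: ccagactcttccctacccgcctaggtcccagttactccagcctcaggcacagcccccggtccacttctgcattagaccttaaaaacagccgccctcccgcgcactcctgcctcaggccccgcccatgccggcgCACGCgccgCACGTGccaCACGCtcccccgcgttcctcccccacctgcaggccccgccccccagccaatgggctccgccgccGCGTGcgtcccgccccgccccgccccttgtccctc
Of the 6 genes with the ACGTG core, Egln1 and Hif1a rose in the comparison described next, and Bnip3, Ddit4, Egln2 and Egln3 did not pass its test. Of the searched genes without this core, Arnt and Vhl did not pass either, and Hif3a had too few reads to be tested. Over all tested genes 10.2% rose, and a link between the core and the change was not tested. Epas1, which also rose, had no promoter sequence to search.

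Library totals were 4446163 to 5776905 counts in control and 5676963 to 6923932 in cold libraries. Levels are given as normalised read counts in CPM, counts scaled to a common library size with TMM factors, and changes as the log2 fold change, cold against control. The exposure showed in Ucp1, the uncoupling protein of heat production, whose mean was 9110 ± 801 CPM at 22 °C and 18500 ± 850 CPM at 4 °C (SD, n = 5). Control replicate 2 and cold replicate 5 stood apart from the other libraries of their groups on the second principal component of all tested genes, at -36.6 and -23.4 against -0.9 to 23.7 for the other 8. On the first component cold replicate 5 was at 6.7, the other cold libraries at 24.2 to 31.7 and the controls at -30.6 to -18.1. Control replicate 2 and cold replicate 5 both entered every comparison, and values without them are given where they matter.

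Across all genes, edgeR's quasi-likelihood test called 19.3% of 11229 tested genes at an adjusted p under 0.05, with 10.2% higher and 9.14% lower after cold. Of the 9 tested genes of the pathway 3 rose, namely Egln1, Hif1a and Epas1, and 0 fell. A higher level in every cold library than in any control library was seen for 1 of the 9, Egln1, against 7.38% of all tested genes. The reverse was seen for 0 of the 9 against 6.6% of all, so that groups without overlap made up 14% of all tested genes. The median log2 fold change was 0.22 over the 9 genes and -0.02 over all genes. The genes were chosen with earlier results of these data known, so these shares describe them and do not test them as a set. Without control replicate 4 or cold replicate 1, Egln1 was the 1 gene of the 9 that passed.

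**Figure D1:**
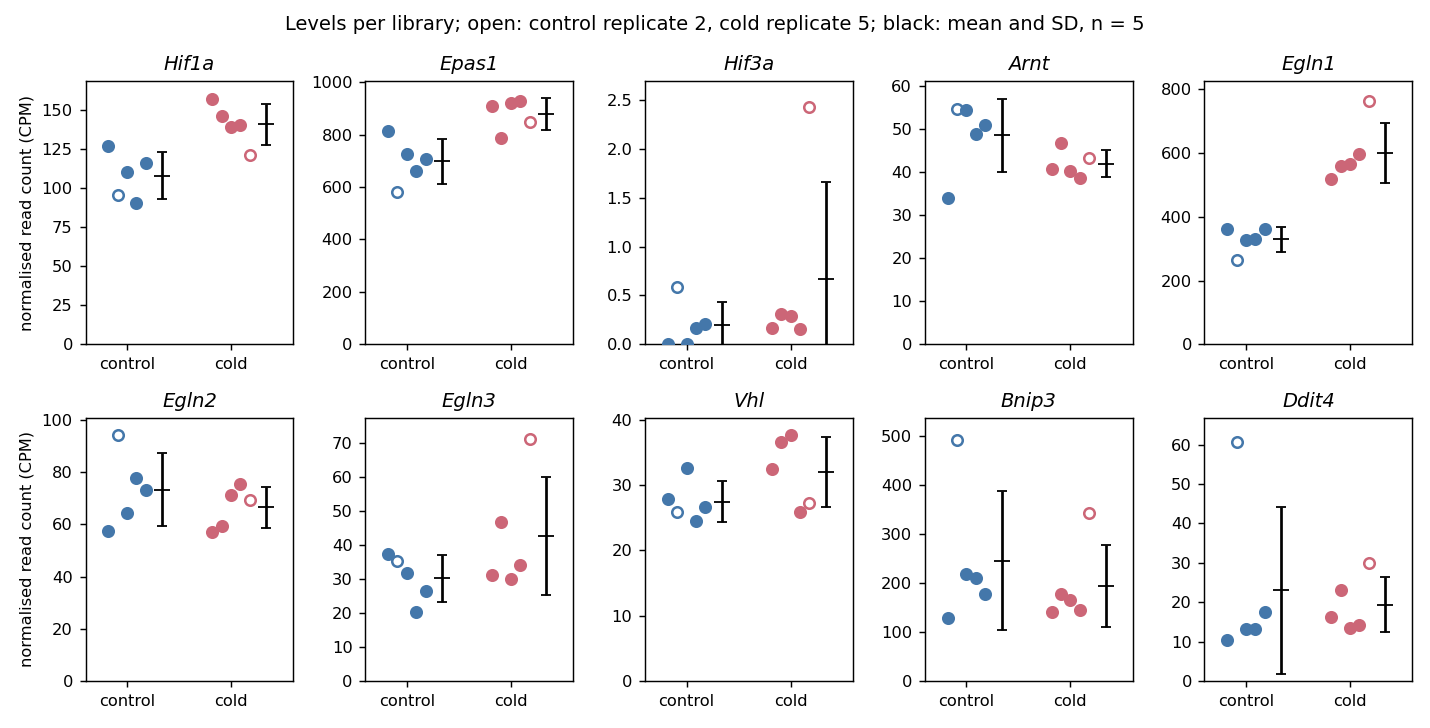
Normalised read counts in CPM (vertical axes, linear, from 0) of the 10 genes in 5 control (blue) and 5 cold (red) libraries, with black mean and SD. Open circles are control replicate 2 and cold replicate 5. For Egln1 the cold libraries lie at 519 to 762 CPM, all above the control libraries, while Bnip3 and Ddit4 are highest in control replicate 2, at 492 and 60.7 CPM.

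The alpha subunits differed widely in level. Per kilobase of counted bases, Epas1, which encodes HIF-2 alpha, was at 130 ± 16 CPM in control libraries, Hif1a at 22.6 ± 3.14 and Hif3a at 0.0278 ± 0.0347 (SD, n = 5). The libraries of these 3 genes did not overlap in this length-scaled level. In the same scale Epas1 lay 5.77-fold above Hif1a in control and 5.56-fold above it in cold libraries, as means of the log2 ratio within each library. The log2 ratio was 2.53 ± 0.11 in control and 2.47 ± 0.15 in cold libraries (SD, n = 5). Its difference of -0.05 was smaller than the spread between libraries (two-sided exact permutation test, p = 0.532, adjusted p = 0.54 over 4 ratios, smallest possible p 0.00794).

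Hif1a (mm9, chromosome 12, 75008854 to 75048517, plus strand), the widely expressed alpha subunit, was at 127, 95.3, 110, 90.6 and 116 CPM in control replicates 1 to 5. It was at 157, 146, 139, 140 and 121 CPM in cold replicates 1 to 5. The groups overlapped only through control replicate 1 and cold replicate 5. Hif1a rose 1.31-fold, with a log2 fold change of 0.39 (SE 0.10, 95% interval 0.16 to 0.61, edgeR quasi-likelihood adjusted p = 0.0196). Leaving out control replicate 4 ended the call (0.33, adjusted p = 0.0508), as did leaving out cold replicate 1 (0.35, adjusted p = 0.0537).

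Epas1 (chromosome 17, 87153204 to 87232750, plus strand), the alpha subunit known for its high level in endothelial cells and in fat, was at 812, 579, 727, 662 and 708 CPM in control replicates 1 to 5. In cold replicates 1 to 5 it was at 908, 787, 921, 928 and 846 CPM. Control replicate 1 reached into the range of the cold libraries, and the other 4 controls lay below all of them. Epas1 rose 1.26-fold (log2 fold change 0.33, SE 0.09, 95% interval 0.13 to 0.54, adjusted p = 0.0244). The call ended when any of 4 libraries was omitted, with an adjusted p of 0.0597 without control replicate 4 and of 0.0574, 0.0634 and 0.0609 without cold replicates 1, 3 and 4.

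Markers of endothelial cells were read beside Epas1. Summed over all 8 listed genes they were at 633 to 928 CPM in control and 776 to 936 CPM in cold libraries, with 0 of 8 markers without reads. Of the 8, Emcn, an endothelial sialomucin, rose by 0.98 (adjusted p = 0.00193), and Kdr, the main receptor for VEGF, by 0.34 (adjusted p = 0.0311). Kdr missed the threshold without control replicate 2 or 5, without cold replicate 1, 2 or 4, and with the replicate block. The other 6 did not pass, from Cldn5, a tight junction protein, at -0.90 (SE 0.44) to Pecam1, an adhesion molecule, at 0.43 (SE 0.15). Control replicate 2 had the highest endothelial sum of the controls, 928 CPM, and the lowest Epas1 of all libraries. In whole tissue, more cells of a type and more RNA per cell cannot be told apart, and the part of endothelial cells in the Epas1 result was not tested.

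Hif3a (chromosome 7, 17616342 to 17647776, minus strand), whose products include short forms that restrain the other alpha subunits, was close to the detection limit and did not pass the filter on low counts. With no filter its log2 fold change was 1.56 (SE 0.96, edgeR quasi-likelihood adjusted p = 0.324). Control replicates 1 to 5 held 0, 3, 0, 1 and 1 counts, and cold replicates 1 to 5 held 1, 2, 2, 1 and 13 counts. A limit of 3 counts corresponds to 0.426 to 0.688 CPM in these libraries, so cold replicate 5, at 2.43 CPM, was the sole library above it. Pooled over the group the level was 0.201 CPM of the unscaled library totals in control (95% exact Poisson interval 0.0651 to 0.468, counting error only). It was 0.621 CPM in cold (0.374 to 0.97) and 0.241 (0.0883 to 0.524) in cold without replicate 5. A difference between the groups was thus not detected at this depth, and the higher pooled level in cold rested mainly on cold replicate 5. The planned log2 ratios of Hif3a to Hif1a (0.60) and to Epas1 (0.65) had an adjusted p = 0.54 each in the exact permutation test. They were -0.07 and 0.02 without cold replicate 5, and -0.29 and -0.24 with a pseudocount of 5 in place of 0.5.

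Arnt (chromosome 3, 95238312 to 95301161, plus strand), the common partner, also called HIF-1 beta, was at 33.9, 54.6, 54.4, 48.7 and 50.9 CPM in control and 40.6, 46.6, 40.1, 38.7 and 43.3 CPM in cold replicates 1 to 5. Apart from control replicate 1, every control library lay above every cold library. The log2 fold change was -0.21 (SE 0.12, 95% interval -0.48 to 0.05, adjusted p = 0.243). Without control replicate 1 it was -0.32 (quasi-likelihood adjusted p = 0.0228), and Arnt passed in no other fit with a single library omitted.

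**Figure D2:**
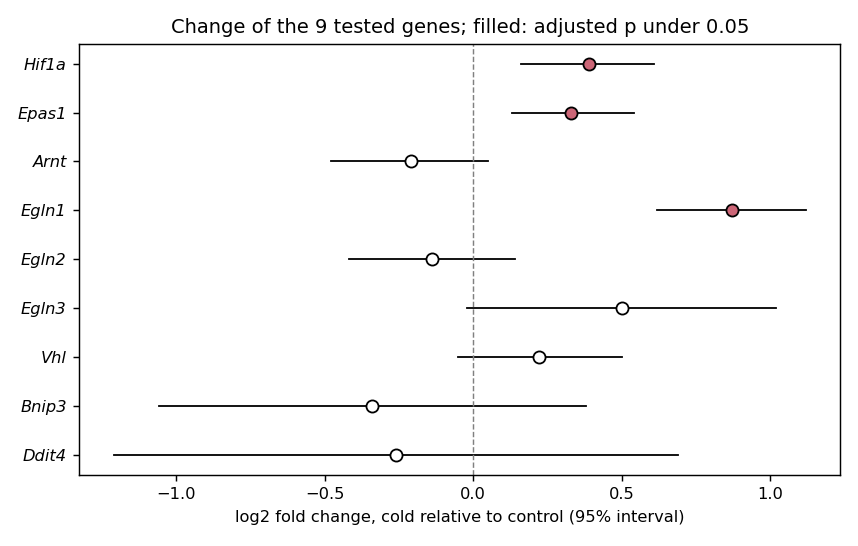
Log2 fold change of cold relative to control (horizontal axis) with its 95% interval for the 9 tested genes, filled where the adjusted p is under 0.05. Egln1 at 0.87, Hif1a at 0.39 and Epas1 at 0.33 are filled, and the interval of Ddit4, from -1.21 to 0.69, is the widest.

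Among the prolyl hydroxylases, which inactivate the alpha subunits, Egln1 alone passed the test, and its change was set against that of Egln3 by a ratio within libraries. Egln1 (chromosome 8, 127432487 to 127473154, minus strand) encodes PHD2, the main oxygen sensor of the family and itself a target of the factors. It was at 361, 265, 328, 331 and 361 CPM in control replicates 1 to 5, and at 519, 558, 567, 597 and 762 CPM in cold replicates 1 to 5. The groups were well apart, with the lowest control in replicate 2 and the highest cold value in replicate 5. Egln1 rose 1.82-fold (log2 fold change 0.87, SE 0.12, 95% interval 0.62 to 1.12, adjusted p = 0.00029), rank 170 of the 11229 genes by p. Its value lay between 0.76 and 0.92 with any 1 library left out and was 0.69 (adjusted p = 3.29e-05) without control replicate 2 and cold replicate 5 together.

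Per kilobase, Egln1 stood at 93.5 ± 11.1 CPM in control libraries, below Epas1 in every control library. In cold libraries it stood at 170 ± 26.8 CPM, beside Epas1 at 164 ± 11.3, and the libraries of this pair overlapped (SD, n = 5).

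Egln2 (chromosome 7, 27943677 to 27951821, minus strand) encodes PHD1 and is not known as a hypoxia target. It lay at 57.4 to 94.2 CPM in control and 57.1 to 75.3 CPM in cold libraries. The lowest libraries of both groups were alike, and control replicates 2 and 4, at 94.2 and 77.7 CPM, lay above all cold libraries. Its log2 fold change was -0.14 (SE 0.13, 95% interval -0.42 to 0.14, adjusted p = 0.469).

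Egln3 (chromosome 12, 55279968 to 55304861, minus strand) encodes PHD3, which is strongly induced by the factors in many cells. It was at 37.3, 35.4, 31.9, 20.2 and 26.6 CPM in control and at 31.2, 46.9, 30.1, 34.3 and 71.3 CPM in cold replicates 1 to 5. Cold replicates 5 and 2 lay above all controls and the other 3 cold libraries within their range. The log2 fold change was 0.50 (SE 0.24, 95% interval -0.02 to 1.02, adjusted p = 0.161), and 0.24 (adjusted p = 0.381) without cold replicate 5. Within libraries the log2 ratio of Egln3 to Egln1 per kilobase was -3.07 ± 0.44 in control and -3.48 ± 0.36 in cold libraries (SD, n = 5). The difference of -0.41 did not pass (two-sided exact permutation test, p = 0.143, adjusted p = 0.54).

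Vhl (chromosome 6, 113574015 to 113581627, plus strand), the subunit that recognises hydroxylated alpha subunits, was at 27.8, 25.8, 32.6, 24.5 and 26.6 CPM in control and 32.4, 36.6, 37.7, 25.9 and 27.3 CPM in cold replicates 1 to 5. The groups overlapped, with cold replicates 2 and 3 above all controls. The log2 fold change was 0.22 (SE 0.13, 95% interval -0.05 to 0.50, adjusted p = 0.235). With 123 to 146 counts per control library, counting alone would give a coefficient of variation of 8.63%, and the observed one was 11.3%. For Epas1 these were 1.71% and 12.3%, so that there the spread between mice was far above the counting error.

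The target genes Bnip3 and Ddit4 varied more between mice of a group than between the groups. Bnip3 (chromosome 7, 146082519 to 146101189, minus strand) encodes an outer mitochondrial membrane protein of mitophagy and is a classic target of the factors. It was at 129, 492, 219, 211 and 177 CPM in control and 141, 177, 165, 144 and 342 CPM in cold replicates 1 to 5. Control replicate 2 and cold replicate 5 were the highest of their groups, and the other 8 libraries lay between 129 and 219 CPM. The log2 fold change was -0.34 (SE 0.33, 95% interval -1.06 to 0.38, adjusted p = 0.505). Omitting control replicate 2 gave 0.07 (adjusted p = 0.868), and omitting cold replicate 5 gave -0.65 (adjusted p = 0.147).

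Ddit4 (chromosome 10, 59412423 to 59414518, minus strand) encodes REDD1, an inhibitor of the growth kinase complex mTORC1 that is induced by hypoxia, glucocorticoids and other stresses. It was at 10.4, 60.7, 13.1, 13.3 and 17.5 CPM in control and 16.3, 23.1, 13.4, 14.2 and 29.9 CPM in cold replicates 1 to 5. The same libraries, control replicate 2 and cold replicate 5, were again the highest of their groups. The log2 fold change was -0.26 (SE 0.44, 95% interval -1.21 to 0.69, adjusted p = 0.714). It changed sign, to 0.50 (adjusted p = 0.16), without control replicate 2 and was 0.30 (adjusted p = 0.305) without both libraries.

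These 2 libraries did not stand apart in all genes of the pathway. Relative to the median of the other 4 controls, control replicate 2 was at 1.35 for Bnip3 and 2.17 for Ddit4 in log2 CPM, but at -0.24 for Hif1a, -0.31 for Epas1 and -0.38 for Egln1. Cold replicate 5 was at 1.15 for Bnip3, 1.12 for Egln3, 0.96 for Ddit4 and 0.44 for Egln1 relative to the other 4 cold libraries, and at -0.23 for Hif1a. Deviations at least as large as that of Ddit4 in control replicate 2 occurred in 0.445% of tested genes in that library, and as large as that of Bnip3 in 2.63%. In cold replicate 5 the shares were 3.98% for Bnip3, 4.21% for Egln3, 5.79% for Ddit4 and 21.6% for Egln1. Macrophage markers, summed over the 6 of 7 found, were at 65 CPM in cold replicate 5, the lowest of the cold libraries, which reached 350, and at 89.5 in control replicate 2, where controls ranged from 88.3 to 202. Mural and fibroblast markers (5 of 5) were at 450 CPM in cold replicate 5, the lowest cold library, and at 547 in control replicate 2, the highest control. Skeletal muscle markers (7 of 7) were lowest of their groups in both libraries, at 39.9 and 37.2 CPM. Their part in the Bnip3 and Ddit4 values was not tested.

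**Figure D3:**
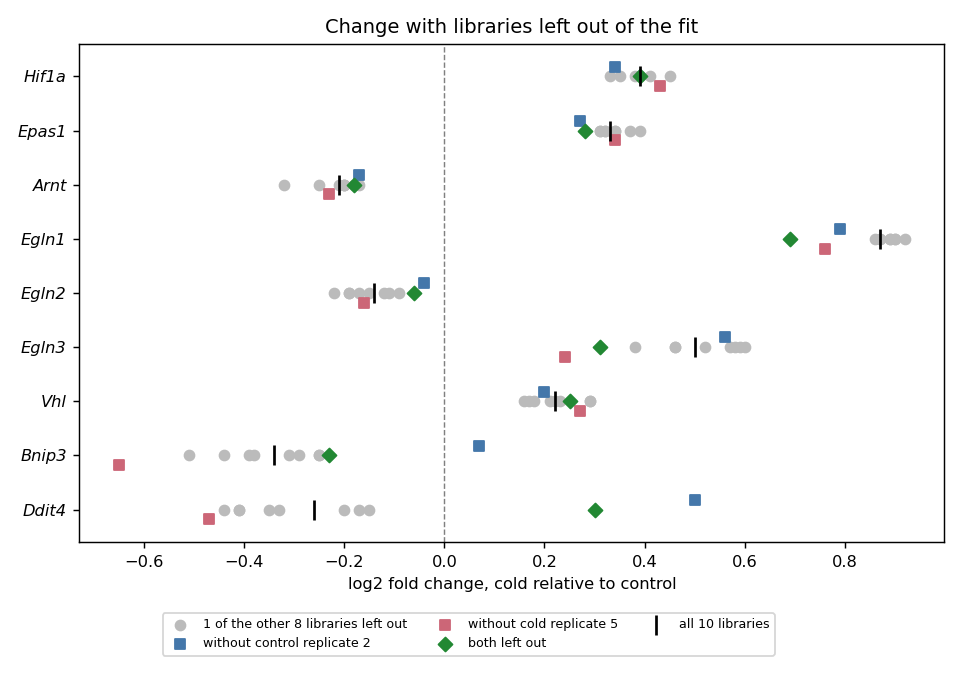
Log2 fold change of cold relative to control (horizontal axis) of the 9 tested genes with all libraries (black tick), with 1 library left out (grey circles, and squares for control replicate 2 in blue and cold replicate 5 in red) and with both of these left out (green diamond). Egln1 stays between 0.69 and 0.92, whereas Ddit4 runs from -0.47 to 0.50.

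Ordered by length-scaled level in control libraries, Bnip3 (140 ± 81.1 CPM per kilobase) and Epas1 came before Egln1, Egln2 (34.8 ± 6.67) and Hif1a. Ddit4 (13.6 ± 12.6), Egln3 (11.3 ± 2.6), Arnt (11.2 ± 1.97) and Vhl (10.1 ± 1.13) followed, and Hif3a was last (SD, n = 5). Neighbours whose libraries did not overlap were Epas1 and Egln1, Egln1 and Egln2, Egln2 and Hif1a, and Vhl and Hif3a. The order within the group from Hif1a to Vhl did not exceed the spread between libraries for any pair of neighbours. In cold libraries Egln1 and Epas1 led, and the pairs apart were Bnip3 and Egln2, and Arnt and Hif3a.

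The authors' deposited table gives log2 fold changes of 0.865 for Egln1, 0.385 for Hif1a and 0.33 for Epas1, with adjusted p-values of 1.12e-08, 0.0177 and 0.0305. It called 19.8% of its 11241 genes at 0.05 and 10.7% as higher, and of the 9 genes of the pathway listed in it these 3 passed. In the authors' deposited table Egln3 was at 0.501 with an adjusted p of 0.115.

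The genes whose pattern over the 10 libraries lay closest to that of Hif1a, by the root mean square difference of centred log2 CPM, were Cpeb3, a translational regulator (0.07), Ide, the insulin-degrading enzyme (0.09), and Mtx3, a metaxin of the mitochondrial outer membrane (0.10). For Epas1 they were Uggt1, a folding sensor of the endoplasmic reticulum (0.05), Mrpl19, a mitochondrial ribosomal protein (0.06), and Pex7, a peroxisomal import receptor (0.07). The SD of Hif1a and Epas1 themselves over the 10 libraries was 0.26 and 0.23 in the same unit. No such list was made for Hif3a, which had too few reads.

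The rest of the oxygen-sensing machinery, a list of 24 further genes, had 21 tested, of which 3 rose and 1 fell, with a median of 0.01. The share that passed, 19%, is close to the 19.3% of all tested genes. Hsp90aa1 and Hsp90ab1, the chaperones that stabilise HIF alpha subunits among many clients, rose by 0.90 (SE 0.10, adjusted p = 6.71e-05) and 0.56 (SE 0.09, adjusted p = 0.000911). Usp20, a deubiquitinase that can counter VHL, fell by 0.67 (SE 0.12, adjusted p = 0.00194). Mtor, the growth kinase, named after its value was seen, rose by 0.50 (SE 0.13, adjusted p = 0.0163). The VHL complex partners Tceb2, Tceb1 and Rbx1, also named afterwards, were at 0.23, 0.14 and 0.24 and did not pass. Tceb2 was nonetheless higher in every cold library than in any control library (adjusted p = 0.0584). Without scaling factors Tceb2 (adjusted p = 0.0369) and Rbx1 (adjusted p = 0.0468) passed the edgeR test. Without control replicate 2, 5 members of the list rose, Siah1a and Vbp1 being added.

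Of 24 glycolytic target genes 21 were tested, of which 3 rose and 0 fell, and their median was 0.10. The 14.3% that passed compare with 19.3% of all tested genes, and all were rises, a direction called in 10.2% of all genes. Pgam1, a phosphoglycerate mutase, rose by 0.46 (SE 0.09, adjusted p = 0.00522), from 292 ± 42.6 to 401 ± 14.3 CPM. Ldha, lactate dehydrogenase A, rose by 0.35 (SE 0.09, adjusted p = 0.0182) and Pgk1, phosphoglycerate kinase, by 0.29 (SE 0.08, adjusted p = 0.0281). Pgk1 passed in 5 of the 10 fits with a library omitted, and not without control replicate 3 or 4 or cold replicate 1, 2 or 3. Pdk1, the kinase by which the factors restrain pyruvate dehydrogenase, was at 0.17 (adjusted p = 0.342), and this gene was named afterwards. The isoform gene Aldoc, also named afterwards, had too few reads for the test and was at -1.80 (adjusted p = 0.00292) when all genes with a read were kept. It also entered the test, and fell, in each fit without control replicate 5 or without any 1 of the cold replicates.

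The longest list, 50 other targets of the factors, had 42 tested genes, of which 12 rose and 4 fell, with a median of 0.21. The rises make up 28.6% of the list against 10.2% of all tested genes, and the falls 9.52% against 9.14%. This list, like the others, was chosen with earlier results of these data known, so the shares describe it and do not test it. P4ha1, a collagen prolyl hydroxylase, rose by 1.26 (SE 0.13, adjusted p = 4.66e-05), from 25.9 ± 6.01 to 61.9 ± 2.36 CPM. Fabp3, which carries fatty acids in the cytosol, rose by 1.27 (SE 0.14, adjusted p = 7.64e-05), and the chemokine Cxcl12 by 1.20 (SE 0.16, adjusted p = 0.000308). The following genes of the list were named after their values were seen. Ak4, a mitochondrial adenylate kinase, rose by 1.39, Edn1, the vasoconstrictor endothelin, by 1.51 and Hmox1, heme oxygenase, by 1.21. Ccng2, a cyclin, rose by 0.79 and Ero1l, a disulfide-forming oxidase, by 0.45. Zfp395 fell by 1.19, Bhlhe41, a clock repressor, fell by 1.30, and Nos3, the endothelial nitric oxide synthase, fell by 0.50. Angptl4, an inhibitor of lipoprotein lipase, fell by 0.79 (adjusted p = 0.0405), but passed in 2 of the 10 fits with a library omitted, those without control replicate 1 or cold replicate 1. It also missed the threshold without scaling factors, with limma-voom and with the replicate block. Vegfa, the vessel growth factor and textbook target, was at 0.23 (adjusted p = 0.164) and did not pass. Omitting any single library left 9 to 13 risen and 3 to 5 fallen genes. The endothelial genes Edn1, Nos3 and Kdr of this list stand beside the endothelial marker sums given above, and the cells they came from were not tested. Of 6 macrophage markers found, Cd68, a lysosomal protein, rose by 2.12 (adjusted p = 0.00673) and the other 5 did not pass. Their sum was 88.3 to 202 CPM in control and 65 to 350 CPM in cold libraries, and its part in the Hmox1 and Cxcl12 values was not tested.

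Neighbours of the target genes in mitophagy and in the pathway from REDD1 to mTORC1 formed a list of 26 genes, of which 25 were tested, 1 rose and 4 fell, with a median of 0.02. The share that passed, 20%, is close to the 19.3% of all tested genes. Eif4ebp1, the translation repressor that mTORC1 phosphorylates, fell by 0.97 (SE 0.10, adjusted p = 3.07e-05), from 253 ± 30.3 to 129 ± 9.21 CPM. Pink1, the kinase that marks damaged mitochondria, fell by 0.54 (SE 0.14, adjusted p = 0.0167) and Sqstm1, an autophagy receptor, fell by 0.52 (SE 0.15, adjusted p = 0.0271). Sesn1, a stress-induced inhibitor of mTORC1, fell by 0.59 (adjusted p = 0.0331) and Ulk1, the kinase that starts autophagy, rose by 0.37 (adjusted p = 0.0399), both named afterwards. Each of these passed in 3 of the 10 fits with a library omitted: Sesn1 without control replicate 1 or 5 or cold replicate 1, and Ulk1 without control replicate 2 or 3 or cold replicate 3. Sesn1 also missed the threshold without scaling factors and with the replicate block. Sqstm1 missed it without control replicate 1 or cold replicate 1, 2 or 3. With control replicate 2 and cold replicate 5 left out together, Sesn1, Ulk1, Angptl4 and Kdr all missed it. Bnip3l, the close relative of Bnip3, was at 0.11 (adjusted p = 0.406). Without cold replicate 2 or cold replicate 3, 2 members fell, Eif4ebp1 and Pink1. Without control replicate 1, 4 or 5 or cold replicate 1, 4 or 5, no member rose (0 of the list).

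**Figure D4:**
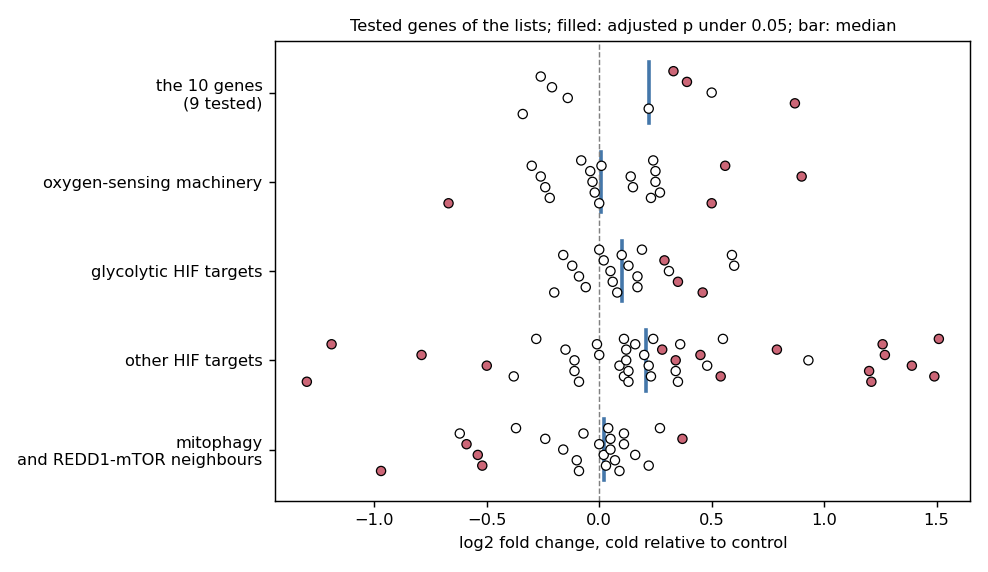
Log2 fold change of cold relative to control (horizontal axis) of every tested gene of the 10-gene set and of the 4 lists (rows; vertical position within a row only separates points), filled where the adjusted p is under 0.05, with a blue bar at the median. The 42 other targets spread most widely, from Bhlhe41 at -1.30 to Edn1 at 1.51.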

How the data were processed

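Counts of reads per RefSeq gene model, 1 column per mouse, were deposited by the authors with the bases counted per gene, per the file headers. The submitters' processing notes name the aligner STAR, the build mm9 and edgeR. Tool versions, the counter and its use of strand: not given in the sources used here. For 27 genes whose symbol was shared or turned into a date, the RefSeq identifier was used as the name. The authors' own comparison is a deposited table of log2 fold changes, log2 CPM and p-values, raw and adjusted, per the file headers. Control columns carry no group word and were matched by replicate number; 0 columns were left unused.

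Cold was compared with control on the deposited counts by edgeR 4.0.16 (R 4.3.3) with TMM scaling, filterByExpr (11229 genes kept) and the quasi-likelihood F test, two-sided, with Benjamini-Hochberg adjustment across these genes. The SE was the size of the log2 fold change divided by the square root of F. Starts in the count table count from 0 and were raised by 1. Ratios within a library used counts plus 0.5 per kilobase of counted bases. The procedure was run on counts simulated from the kind of model it fits. Its pass rule looked at changes larger than those of the tested genes of the pathway, so it does not bear on their calls. All p-values take the 5 mice per group as the replicates. The quasi-likelihood test sets the group difference against a spread between mice that is estimated with information shared across genes. No pair of libraries of a group agreed within sampling noise.

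The 10 genes and the lists were chosen with earlier results of these data known. From each pathway list up to 3 called genes with the smallest p were named, and others are said to be named afterwards. Alternatives were other scalings (RLE, upper quartile, none, totals without the 20 most abundant genes), no filter or CPM above 1 in 5 libraries, DESeq2 1.42.0, limma-voom (limma 3.58.1), a replicate block, and libraries left out. Markers of red cells (4 of 5 found) summed to 8.58 to 18.6 CPM in control and 14.9 to 44.5 CPM in cold libraries, and those of brown adipocytes (7 of 7) to 25000 to 28000 and 34200 to 39200 CPM. Among the latter Ucp1 rose by 1.02 and Cox7a1 by 0.34, Adipoq fell by 0.72, and Fabp4 (0.25), Cidea (0.07), Pparg (-0.06) and Plin1 (-0.14) did not pass. Skeletal muscle markers summed to 39.9 to 120 CPM and 37.2 to 307 CPM.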

Additional observations from a re-analysis of the deposited data

Results flagged for a closer look

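In 24 groups of 5 values (10 genes and 2 ratios, each in control and cold libraries), 5 held a library far from the other 4, where the gap to the nearest value took more than 0.71 of the whole range. Chance gives about 1 in 20 groups if the values are normally distributed. The CPM values are on a linear scale, those of Hif3a rest on few counts, and the groups share the same libraries. The rate is therefore a rough guide only. Control replicate 2 was the highest control for Ddit4 (gap 0.859 of the range, 60.7 CPM) and for Bnip3 (0.752, 492 CPM). Cold replicate 5 was the highest cold library for Bnip3 (0.821, 342 CPM) and for Hif3a (0.933, 2.43 CPM from 13 counts). Control replicate 1 was the lowest control for Arnt (0.715, 33.9 CPM).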

How the results depend on the processing

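Egln1 passed the threshold in every fit run, with log2 fold changes of 0.69 to 0.92. Hif1a and Epas1 passed under all alternatives other than leaving out 1 library, where Hif1a lay at 0.33 to 0.45 and passed in 8 of 10 fits, and Epas1 at 0.27 to 0.39, passing in 6 of 10. With 1 library left out Arnt lay between -0.32 and -0.17, Bnip3 between -0.65 and 0.07 and Ddit4 between -0.47 and 0.50; Ddit4 was at 0.30 without control replicate 2 and cold replicate 5 together. These fits called 1 to 3 of the 9 genes higher and 0 to 1 lower. They called 3 to 5 genes of the oxygen-sensing list higher, 0 to 1 glycolytic targets lower, and 0 to 1 of the mitophagy and mTOR list higher with 2 to 6 lower. Without scaling factors 5 oxygen-sensing genes and 2 of the mitophagy and mTOR list were higher. Without control replicate 2 and cold replicate 5 together these were 5 and 0, and 1 glycolytic target, Aldoa, was lower. With no filter or the CPM filter 1 glycolytic target, Aldoc, was lower, because it then entered the test. The log2 ratio of Hif3a to Hif1a was between -0.07 and 1.03 with 1 library left out; with a pseudocount of 5 it was -0.29 and that to Epas1 -0.24. The ratio of Hif3a to Epas1 was between 0.02 and 1.10 with 1 library left out. For the others the cause was not tested. Depth limits Hif3a most.

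Same-numbered control and cold libraries deviated from their group means with correlations across genes of -0.25 to 0.19, and 2 of 5 control libraries matched best with their own number, so the numbers were not taken to pair mice. With the replicate block 981 genes were higher and 808 lower, against 1142 and 1026 without it; Egln1 was at 0.86, Hif1a at 0.39 and Epas1 at 0.34, and no call among the 9 genes changed. The block gave 0.562 as adjusted p for each ratio, where 5 pairs allow no raw p below 0.0625.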

Other observations

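The genes closest in pattern to Egln1, Bnip3 and Ddit4, looked up after the values of these 3 were seen and by the same distance as for Hif1a, are given as a description. Because they were picked for likeness over the same 10 libraries, their direction and the libraries in which they are high follow from the choice. For Egln1 they included Stard5, a lipid transfer protein (distance 0.13), and Gpd1, the cytosolic glycerol phosphate dehydrogenase (0.15). Both rose, by 0.86 and 0.66, and each was highest in cold replicate 5, as Egln1 was. Gpd1 was at 28000 CPM there, and the rest of the cold group lay at 18700 to 21100 CPM.

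For Bnip3 they were Atl2, an atlastin of the endoplasmic reticulum (0.13), Mt1, a metallothionein (0.22), and Sav1, a scaffold of the Hippo pathway (0.23). Atl2 was at 364 CPM in control replicate 2 against 97.8 to 159 in the other controls, and at 205 CPM in cold replicate 5, where the rest of the cold group lay at 107 to 137. Mt1 was at 503 CPM against 213 to 311, and at 391 against 178 to 230. For Ddit4 they were Igfbp3, a binding protein of insulin-like growth factors (0.26), Synm, an intermediate filament protein (0.27), and Lnx1, a ubiquitin ligase (0.31). Igfbp3 was at 87.1 CPM in control replicate 2 against 15.6 to 19 in the other controls, and at 50.4 in cold replicate 5 against 22.9 to 36.9.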
